A study of Mus musculus with 6 samples.

Results

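The genes described here are 36 antiviral interferon-stimulated genes, named from textbook knowledge of the response to interferon and looked up by symbol in the array's annotation. A probe set, the group of short probes that reports 1 transcript, was available with a single gene symbol for 33 of the 36, out of 18193 genes measured in all. Isg15 was found on a probe set annotated with several genes, and Oas1g and Ifi44 had no probe set with a single symbol, so these 3 were not analysed here. Where a gene had several probe sets, the one with the highest mean over all arrays stood for it.

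Interferons are secreted proteins that cells make when they sense viral nucleic acid. Type I interferon binds the receptor chains Ifnar1 and Ifnar2, whose kinases Tyk2 and Jak1 pass the signal to the transcription factor Stat2. Together with Irf9 it acts at the interferon-stimulated response element (ISRE) in the promoters of genes whose products degrade viral RNA, block translation or hold back new virus particles. Dendritic cells sense viruses with Toll-like receptors and cytoplasmic RNA sensors, and many of the sensors are themselves induced by interferon.

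Expression was measured on 6 Affymetrix arrays of cells grown from the bone marrow of C57BL/6 mice, in 3 groups of 2. GM-TNFa-DC are dendritic cells cultured with GM-CSF plus the inflammatory cytokine TNFa. GM-DC are dendritic cells derived with GM-CSF alone from the third group, GM-MPP, which are multipotent progenitors grown in stem cell cytokines plus GM-CSF, so every group had received GM-CSF. No label records an added interferon or virus. The labels number the arrays of each group 1 and 2 and do not name the culture or animal behind each, so the tests reflect only how far these arrays spread, and that spread may be technical. Levels are log2 values from robust multi-array averaging (RMA), 1 unit being a 2-fold difference, and the median of all values was 4.73. A level near or below that median lies close to background. For any gene, a difference from such a level is not exact and stands as a lower limit in size. Precision is also limited by how few arrays there are. Itgax, an integrin of dendritic cells, followed the labels, at 10.75 to 11.59 on the 4 dendritic cell arrays and at 4.47 and 4.49 on the GM-MPP arrays. The neutrophil elastase gene Elane, expressed by granulocyte precursors, was at 5.03 to 5.79 against 11.63 and 12.30. Elane separates the groups but does not mark multipotent progenitors. On the GM-MPP arrays 10 neutrophil granule markers had mean levels of 12.4 and 12.9, and 8 progenitor markers 8.68 and 9.10. The share of granulocyte precursors in GM-MPP was not tested. The stem cell factor receptor Kit, a progenitor marker, did not follow the labels, at 5.43 on GM-TNFa-DC 2, 5.65 on GM-DC 2, 8.66 on GM-TNFa-DC 1 and 9.0 on GM-DC 1, against 7.09 and 7.22 on the GM-MPP arrays. In bulk RNA, fewer cells of a type and less RNA per cell cannot be told apart.

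Promoters from RefSeq (assembly GRCm38.p6, 250 bases before to 50 after each transcription start) were available for 25 of the 36 genes, 22 of them measured. The letters TTCNNTTTC, the core of the ISRE, were searched on both strands, with overlapping matches allowed. They were found in 14 of these 25 genes, or 56%, and in 9.76% of all 27025 genes with a promoter that was searched. The genes were listed as interferon-stimulated, so this share is not independent of how the list was made. The search left out the promoters of 1 chromosome. The gamma-activated sequence TTCNNNGAA was found in 8 of the 25, or 32%, against 9.55% of all genes, and the NF-kB core GGANNTTCC in 6, or 24%, against 4.86%. The promoters of 6 members are shown. Of the genes that hold the ISRE core and are described in full below, these had the largest absolute change in GM-DC against GM-MPP. Each is written 5′ to 3′ in the direction of transcription, with the ISRE core in capitals. Ifit3 lies at chr19:34583279-34583578 on the plus strand, with 3 matches between 155 and 94 bases before the start. Oas1a lies at chr5:120907476-120907775 on the minus strand, with 2 overlapping matches from 20 to 6 bases before the start. Rsad2 lies at chr12:26456403-26456702 on the minus strand, with 1 match from 119 to 111 bases before the start. Ifit1 lies at chr19:34640639-34640938 on the plus strand, with 3 matches in 2 blocks between 109 and 76 bases before the start. Bst2 lies at chr8:71537423-71537722 on the minus strand, with 2 overlapping matches from 130 to 116 bases before the start. Ifih1 lies at chr2:62646206-62646505 on the minus strand, with 1 match that begins 112 bases before the start and 1 that lies after it.
Ifit3: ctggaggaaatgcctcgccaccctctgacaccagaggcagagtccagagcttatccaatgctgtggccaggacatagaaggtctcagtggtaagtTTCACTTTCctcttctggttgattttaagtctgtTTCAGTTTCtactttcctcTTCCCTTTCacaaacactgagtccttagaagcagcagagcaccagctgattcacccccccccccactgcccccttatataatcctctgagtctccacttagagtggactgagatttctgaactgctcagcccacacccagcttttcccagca
Oas1a: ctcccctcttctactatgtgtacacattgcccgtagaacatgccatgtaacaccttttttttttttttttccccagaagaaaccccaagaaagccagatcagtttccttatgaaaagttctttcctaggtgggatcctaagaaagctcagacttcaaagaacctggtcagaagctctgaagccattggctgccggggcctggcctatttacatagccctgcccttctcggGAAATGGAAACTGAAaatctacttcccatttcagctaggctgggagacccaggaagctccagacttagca
Rsad2: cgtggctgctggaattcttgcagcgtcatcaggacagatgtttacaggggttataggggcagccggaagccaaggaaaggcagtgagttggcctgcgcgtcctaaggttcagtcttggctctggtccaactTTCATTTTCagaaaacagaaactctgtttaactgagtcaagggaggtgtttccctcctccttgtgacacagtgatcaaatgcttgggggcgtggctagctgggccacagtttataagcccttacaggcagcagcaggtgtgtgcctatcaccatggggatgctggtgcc
Ifit1: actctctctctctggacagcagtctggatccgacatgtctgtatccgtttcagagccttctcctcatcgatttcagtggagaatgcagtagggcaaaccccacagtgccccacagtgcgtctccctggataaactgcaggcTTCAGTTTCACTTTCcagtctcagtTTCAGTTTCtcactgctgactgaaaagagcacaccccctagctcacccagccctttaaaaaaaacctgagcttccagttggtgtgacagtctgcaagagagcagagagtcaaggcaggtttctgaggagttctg
Bst2: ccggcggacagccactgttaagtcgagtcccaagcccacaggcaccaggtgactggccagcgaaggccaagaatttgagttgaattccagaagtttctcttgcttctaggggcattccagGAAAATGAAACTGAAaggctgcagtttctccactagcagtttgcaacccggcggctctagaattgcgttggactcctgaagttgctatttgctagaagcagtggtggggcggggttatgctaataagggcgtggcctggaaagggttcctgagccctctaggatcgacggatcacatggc
Ifih1: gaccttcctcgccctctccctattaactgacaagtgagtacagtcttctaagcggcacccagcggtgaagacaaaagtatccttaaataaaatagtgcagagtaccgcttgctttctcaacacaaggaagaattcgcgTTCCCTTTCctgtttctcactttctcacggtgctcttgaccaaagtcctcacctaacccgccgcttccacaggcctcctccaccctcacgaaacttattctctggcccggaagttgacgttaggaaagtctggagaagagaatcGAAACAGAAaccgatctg

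The antiviral genes are described here by 2 patterns, a difference between array numbers and a difference between cell groups. On the number-2 arrays of GM-TNFa-DC and GM-DC, the oligoadenylate synthetase and Ifit families, Rsad2, Rtp4, Xaf1, Isg20 and the RNA sensors Ddx58 and Dhx58 were higher than on the number-1 arrays, by 2.64-fold (Dhx58) to 13.0-fold (Rtp4). A second set, with Mx1, Parp14, Parp9 and Tor3a, differed between the numbers by 0.34 or less on average over the 2 dendritic cell groups. Within GM-TNFa-DC, Mx1 differed by -0.63. The set lay higher on all 4 dendritic cell arrays than on either GM-MPP array, and its genes were called in GM-TNFa-DC against GM-MPP. Adar, Samhd1 and Mx2 met the same description of levels but were called in no comparison. The 2 patterns are not exclusive. Usp18, Zbp1, Oasl2, Ifi27l2a, Xaf1, Bst2, Trim25 and Ifit3 were called higher on number 2. They also lay higher on all 4 dendritic cell arrays than on either GM-MPP array. No member changed past the threshold with TNFa. The plot of the level of each gene on each array shows these patterns.

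**Figure D1:**
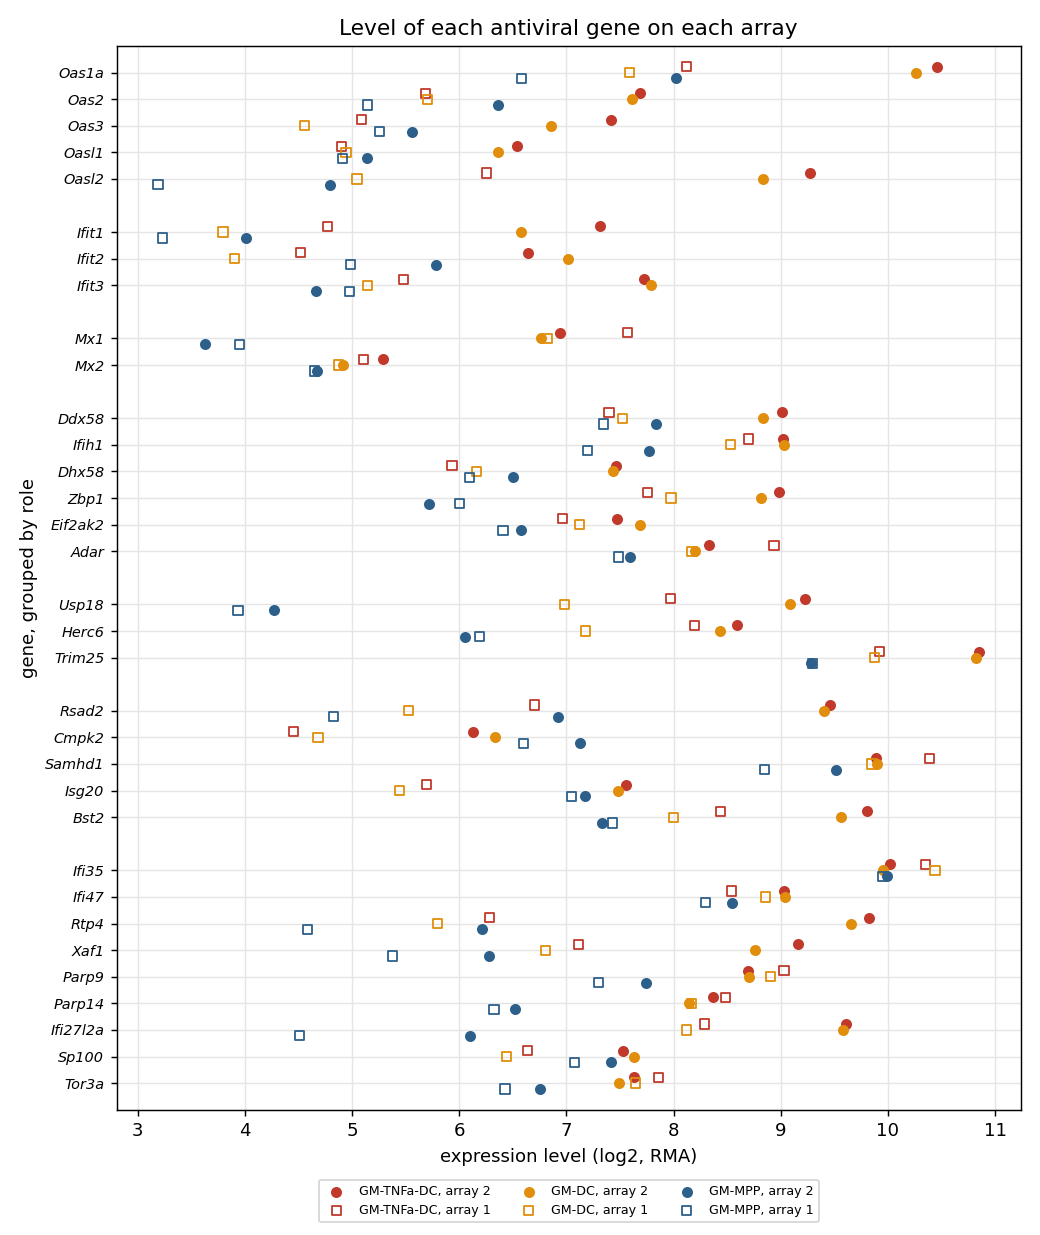
Level (log2, RMA) of the 33 measured antiviral genes, grouped by role from top to bottom, on each of the 6 arrays. Filled circles are arrays numbered 2 and open squares arrays numbered 1; for Oas1a the filled dendritic cell points lie at 10.45 and 10.26, to the right of the open ones at 8.12 and 7.59, whereas the 4 dendritic cell points of Parp14 lie between 8.14 and 8.48.

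Rtp4, Oasl2, Rsad2, Ifit1 and Ifit2 led the difference between number 2 and number 1 in the dendritic cell arrays, and Mx1, Ifi35, Adar, Parp9, Samhd1, Tor3a and Parp14 had values slightly below 0 that were not called. The difference was tested on the 4 arrays of GM-TNFa-DC and GM-DC, in a limma fit with terms for group and number, Benjamini-Hochberg adjustment over all 18193 genes and a threshold of 0.05. Of the 33 members, 21 were called higher and 0 lower on number 2, against 6.41% of all genes called higher and 5.41% called lower. At an unadjusted p under 0.05, 24 members were higher and 1 was lower, against 2472 and 2433 of all 18193 genes. Groups did not overlap, with number 2 higher, for 25 members, against 29.8% of all genes. The median log2 difference was 1.40 over the members and 0.03 over all genes, with 1.32 within GM-TNFa-DC and 1.31 within GM-DC. The fit has 1 residual degree of freedom, and its p-values say only how alike the number difference was in the 2 groups. The comparison was chosen because earlier results of these data showed that same-numbered dendritic cell arrays deviate together. What arrays of 1 number share is not given in the labels. With GM-MPP added to the fit (6 arrays, group and number), limma called 0 of all 18193 genes and so 0 members. In that fit 18 members were higher at an unadjusted p under 0.05, against 2293 of all genes in either direction. The median over the members was 1.07.

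Within single groups the difference can be given without a test. Number 2 was at least 2-fold above number 1 for 19 of 33 members in GM-TNFa-DC, 20 in GM-DC and 6 in GM-MPP, against 4.71%, 4.05% and 1.32% of all genes. No member was at least 2-fold lower on number 2 in any group. The medians over members were 1.32 in GM-TNFa-DC, 1.31 in GM-DC and 0.34 in GM-MPP. The 6 genes past 2-fold in GM-MPP were Rsad2 (2.09), Rtp4 (1.62), Oasl2 (1.60), Ifi27l2a (1.59), Oas1a (1.44) and Oas2 (1.22). Whether the number difference itself differed between dendritic cells and progenitors was not tested. The plot of differences between the arrays of each group orders the genes by it.

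**Figure D2:**
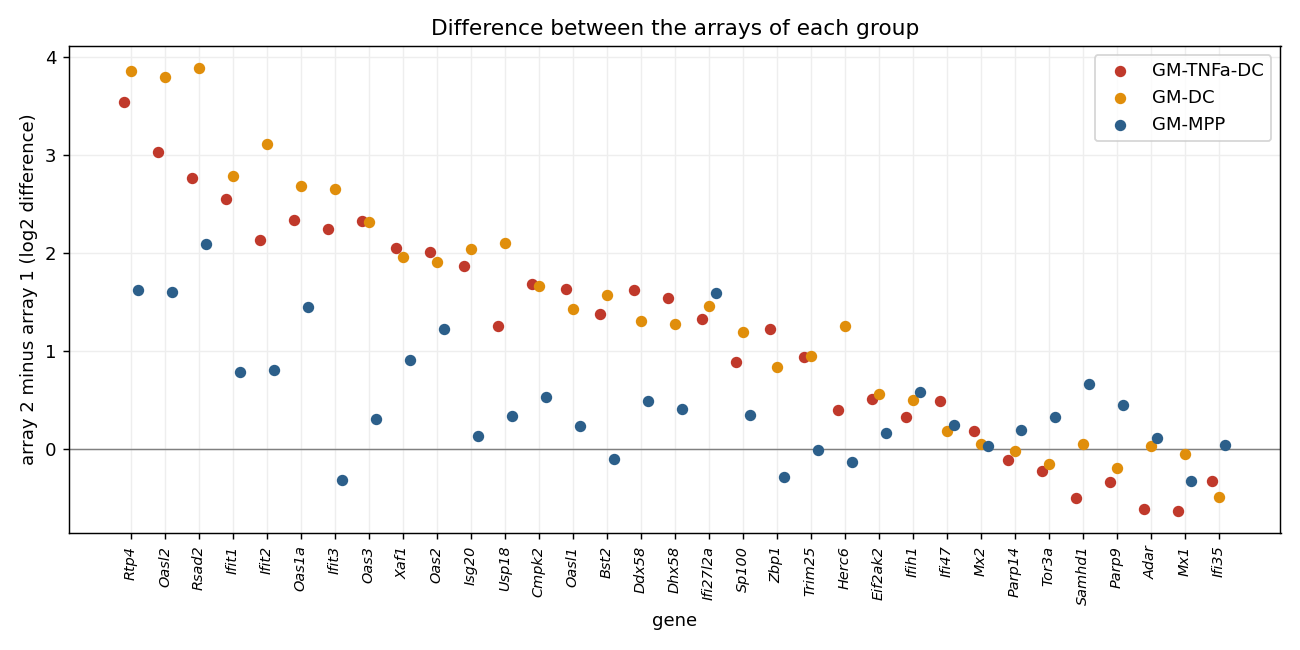
Log2 difference of array 2 minus array 1 within each group (1 point per gene and group), genes ordered by the mean of the GM-TNFa-DC and GM-DC values. Rtp4 stands at 3.54 in GM-TNFa-DC, 3.86 in GM-DC and 1.62 in GM-MPP, and Ifi35 at the right end is at -0.33, -0.49 and 0.04.

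Differentiation from progenitors to dendritic cells was addressed by GM-DC against GM-MPP. The GTPase gene Mx1 was 8.03-fold and Parp14 3.33-fold higher in GM-DC, and Usp18 (15.2-fold), Ifi27l2a (11.7-fold) and Zbp1 (5.78-fold) had fold values that did not pass the threshold. The GM-MPP levels of Mx1 and Usp18 lay below the median of all values, near background, so their folds against GM-MPP here and below are not exact and stand as lower limits. The test used all 6 arrays in 1 limma fit with 3 residual degrees of freedom. Of the 33 members, 2 were called higher and 0 lower, against 1.87% of all genes called higher and 2.63% called lower. At an unadjusted p under 0.05, 10 were higher and 0 lower, against 1649 and 2272 of all 18193 genes. The mean was higher in GM-DC for 30 of 33 members. Groups did not overlap, with GM-DC higher, for 19, against 28.3% of all genes. With GM-DC lower they did not overlap for 1 member, Cmpk2, against 4910 of all 18193 genes. The median log2 change was 1.06, against 0.02 over all genes, and it was 1.26 between arrays numbered 2 and 0.69 between arrays numbered 1. Changes ranged from -1.35 for Cmpk2 to 3.93 for Usp18. Leaving out an array leaves its group with 1, which is then assumed to vary like the others. Without either GM-MPP array 0 of the members were called, with 9 higher at an unadjusted p under 0.05 each time; without GM-DC 1 the called member was Usp18, and without GM-DC 2 it was Mx1. Without GM-TNFa-DC 1 or GM-TNFa-DC 2, which enter the shared spread only, the called members were Mx1, Zbp1 and Parp14.

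Dendritic cells grown with TNFa were set against the same progenitors in GM-TNFa-DC against GM-MPP. Usp18 (22.5-fold), Mx1 (11.1-fold), Zbp1 (5.69-fold), Herc6 (4.83-fold), Parp14 (4.01-fold), Parp9 (2.53-fold) and Tor3a (2.23-fold) were higher in GM-TNFa-DC. These were the 7 members called higher, with 0 lower, against 2.77% and 4.26% of all genes. Groups did not overlap, with GM-TNFa-DC higher, for 22 members, against 31.6% of all genes. At an unadjusted p under 0.05 there were 16 members higher and 0 lower, against 2091 and 2482 of all 18193 genes. The median was 1.15, against 0.05 over all genes, with 1.40 between arrays numbered 2 and 1.43 between arrays numbered 1. The GM-MPP arrays are the same as in the comparison above, so the 2 sets of values share them. Leaving out either GM-MPP array left 0 members called, with 11 higher at an unadjusted p under 0.05 without GM-MPP 1 and 12 without GM-MPP 2. Leaving out GM-TNFa-DC 1 or GM-TNFa-DC 2 left Mx1 and Parp14, and leaving out GM-DC 1 or GM-DC 2 left Mx1, Usp18, Herc6 and Parp14.

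The effect of TNFa was asked by GM-TNFa-DC against GM-DC. No member was called by limma, and at an unadjusted p under 0.05 there were 0 members in either direction. Over all genes 0% were called higher and 0% lower, with 270 higher and 140 lower unadjusted. This fit had no term for number, so the number difference that the 2 groups share counted as spread and widened the errors. A fit of the 4 arrays compared with a term for number, chosen after seeing the data, also called 0 genes. In it 4 members were higher at an unadjusted p under 0.05, against 1474 of all 18193 genes in either direction. A small effect of TNFa on the members is therefore not excluded. The mean was higher in GM-TNFa-DC for 27 of 33 members, and 18 were higher on both array numbers, against 30.9% of all genes. The median was 0.16, against 0.01 over all genes, with 0.13 on number 2 and 0.25 on number 1. Changes ranged from -0.22 for Cmpk2 to 0.86 for Ifit1. Groups did not overlap, with GM-TNFa-DC higher, for 4 members, against 14.9% of all genes, a share near this background; the 4 were Mx1, Mx2, Adar and Parp14, named after their values were seen. Without GM-DC 1 the median was -0.53, and without GM-TNFa-DC 2 it was -0.44; the arrays left are then unbalanced in number.

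**Figure D3:**
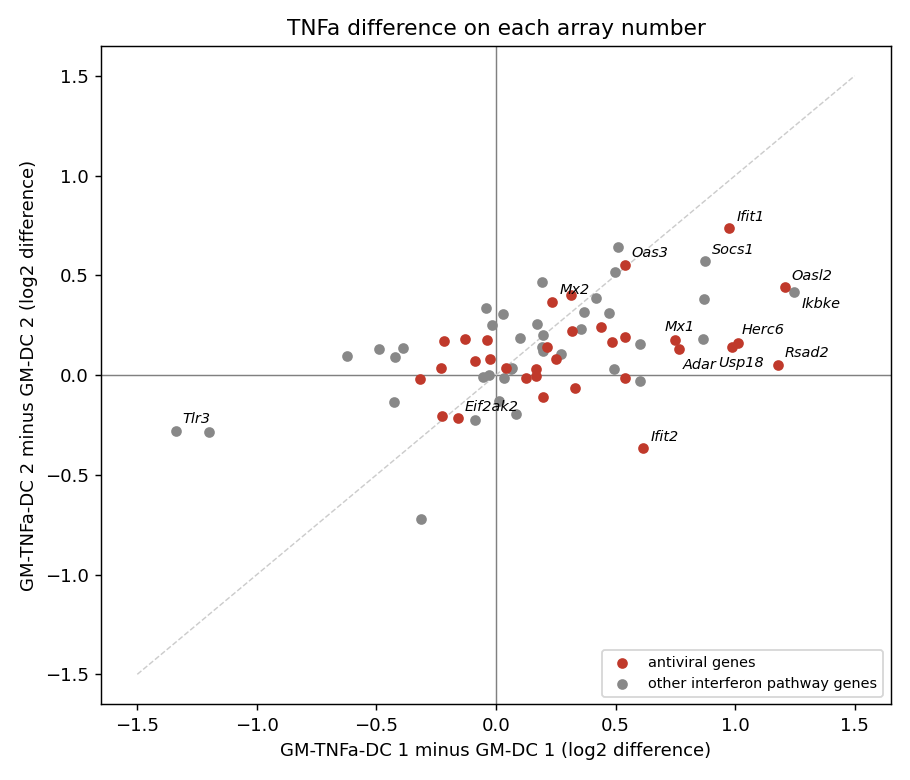
Log2 difference of GM-TNFa-DC minus GM-DC between arrays numbered 2 (vertical axis) and between arrays numbered 1 (horizontal axis), for the 33 antiviral genes (red) and 39 other interferon pathway genes (grey); the dashed line marks equal values. Oasl2 lies at 0.44 on number 2 and 1.21 on number 1, Rsad2 at 0.05 and 1.18, and Ifit1 at 0.74 and 0.98.

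The oligoadenylate synthetases bind double-stranded RNA and make the messenger that switches on RNase L, which cuts viral and cellular RNA. All 5 measured members were called higher on number 2 in the dendritic cell arrays. Oas1a was at 10.45 and 8.12 in GM-TNFa-DC, 10.26 and 7.59 in GM-DC, and 8.02 and 6.58 in GM-MPP (arrays 2 and 1). Its number difference was 2.50 ± 0.15 (adjusted p = 0.00288), and on each number it was higher in both dendritic cell groups than in GM-MPP. Oas2 was at 7.69 and 5.68 in GM-TNFa-DC, 7.61 and 5.71 in GM-DC, and 6.36 and 5.14 in GM-MPP (arrays 2 and 1), with a number difference of 1.95 ± 0.14 (adjusted p = 0.00387). Oas3, the longest enzyme of the family, was at 7.41 and 5.09 in GM-TNFa-DC, 6.86 and 4.55 in GM-DC, and 5.56 and 5.26 in GM-MPP (arrays 2 and 1). The number-1 dendritic cell arrays were below both GM-MPP arrays and the number-2 arrays above them, and the number difference was 2.32 ± 0.14 (adjusted p = 0.00291). Oasl1, which in mouse limits translation of Irf7, was at 6.54 and 4.90 in GM-TNFa-DC, 6.36 and 4.94 in GM-DC, and 5.14 and 4.91 in GM-MPP (arrays 2 and 1), and its number difference was 1.53 ± 0.15 (adjusted p = 0.00729). Oasl2, a relative of the family, was at 9.28 and 6.25 in GM-TNFa-DC, 8.84 and 5.05 in GM-DC, and 4.79 and 3.19 in GM-MPP (arrays 2 and 1). It had the largest number difference of the family, 3.41 ± 0.22 (adjusted p = 0.00321), and all 4 dendritic cell arrays exceeded both GM-MPP arrays, while the change of 2.95 ± 1.53 (adjusted p = 0.338) in GM-DC against GM-MPP did not pass the threshold. Oas1a has a near-identical copy, Oas1g, and cross-hybridisation between them was not tested.

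The Ifit proteins bind viral RNA with foreign ends and keep it from being translated. All 3 members were called higher on number 2. Ifit1 was at 7.32 and 4.77 in GM-TNFa-DC, 6.58 and 3.80 in GM-DC, and 4.01 and 3.23 in GM-MPP (arrays 2 and 1), with a number difference of 2.66 ± 0.15 (adjusted p = 0.00278). Ifit2, at 6.65 and 4.52 in GM-TNFa-DC, 7.01 and 3.90 in GM-DC, and 5.78 and 4.98 in GM-MPP (arrays 2 and 1), was lower on the number-1 dendritic cell arrays than on either GM-MPP array, and its number difference was 2.62 ± 0.26 (adjusted p = 0.00745). On the number-1 dendritic cell arrays, Ifit1 and Ifit2 lay near or below the median of all values, close to background. Ifit3 was at 7.72 and 5.48 in GM-TNFa-DC, 7.79 and 5.14 in GM-DC, and 4.66 and 4.98 in GM-MPP (arrays 2 and 1), with a number difference of 2.45 ± 0.17 (adjusted p = 0.00353). GM-DC exceeded GM-MPP by 3.13 between arrays numbered 2 and by 0.17 between arrays numbered 1. The Ifit genes have close copies in the mouse genome, and cross-hybridisation was not tested.

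The Mx proteins are dynamin-like GTPases that trap viral nucleoproteins; C57BL/6 mice carry a defective Mx1 gene whose transcript is still induced by interferon. Mx1 was at 6.94 and 7.57 in GM-TNFa-DC, 6.76 and 6.82 in GM-DC, and 3.62 and 3.95 in GM-MPP (arrays 2 and 1). The dendritic cell arrays stood far above both progenitor arrays and the groups did not overlap. Its change was 3.47 ± 0.27 (adjusted p = 0.00507) in GM-TNFa-DC against GM-MPP and 3.01 ± 0.27 (adjusted p = 0.00802) in GM-DC against GM-MPP. The number difference of -0.34 ± 0.19 was not called. Mx2 ranged from 4.65 to 5.29 over all arrays, close to the median of all values, and was called in no comparison.

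Among the sensors and double-stranded RNA enzymes, Ddx58 (RIG-I), Dhx58 (LGP2) and Zbp1 were called higher on number 2, and Ifih1 (MDA5), Eif2ak2 and Adar were not. Ddx58, which senses RNA with a triphosphate end, was at 9.01 and 7.40 in GM-TNFa-DC, 8.83 and 7.52 in GM-DC, and 7.83 and 7.34 in GM-MPP (arrays 2 and 1). Its number difference was 1.46 ± 0.15 (adjusted p = 0.00782), and GM-DC exceeded GM-MPP by 1.00 between arrays numbered 2 and by 0.18 between arrays numbered 1. Dhx58, a regulator of the other RNA sensors, was at 7.47 and 5.93 in GM-TNFa-DC, 7.43 and 6.16 in GM-DC, and 6.51 and 6.10 in GM-MPP (arrays 2 and 1), with a number difference of 1.40 ± 0.15 (adjusted p = 0.00925). Ifih1, which senses long double-stranded RNA, was at 9.02 and 8.70 in GM-TNFa-DC, 9.03 and 8.53 in GM-DC, and 7.77 and 7.20 in GM-MPP (arrays 2 and 1). All dendritic cell arrays exceeded both GM-MPP arrays, with a change of 1.30 ± 0.31 (adjusted p = 0.0819) in GM-DC against GM-MPP that did not pass the threshold. Zbp1, a sensor of left-handed nucleic acid that can trigger cell death, was at 8.99 and 7.76 in GM-TNFa-DC, 8.81 and 7.98 in GM-DC, and 5.72 and 6.01 in GM-MPP (arrays 2 and 1). Its change was 2.51 ± 0.49 (adjusted p = 0.0429) in GM-TNFa-DC and 2.53 ± 0.49 (adjusted p = 0.0519) in GM-DC, each against GM-MPP, and its number difference was 1.03 ± 0.16 (adjusted p = 0.0212). Eif2ak2 (PKR), which stops translation, ranged from 6.41 to 7.68, and the RNA-editing enzyme Adar from 7.49 to 8.94. Both were higher on every dendritic cell array than on either GM-MPP array, and neither was called.

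ISG15 is a ubiquitin-like protein that is attached to other proteins during the response, and 3 genes of its handling and of ubiquitin ligation were measured. Usp18, which removes ISG15 and dampens the type I receptor, was at 9.22 and 7.97 in GM-TNFa-DC, 9.08 and 6.98 in GM-DC, and 4.27 and 3.93 in GM-MPP (arrays 2 and 1). Its change against GM-MPP was 4.49 ± 0.75 (adjusted p = 0.0306) in GM-TNFa-DC and 3.93 ± 0.75 (adjusted p = 0.052) in GM-DC, lower limits because the GM-MPP levels lie below the median of all values. The GM-DC value did not pass the threshold, and the number difference was 1.67 ± 0.23 (adjusted p = 0.0165). Herc6, the ISG15 ligase of the mouse, was at 8.59 and 8.19 in GM-TNFa-DC, 8.43 and 7.18 in GM-DC, and 6.06 and 6.19 in GM-MPP (arrays 2 and 1). Its change in GM-TNFa-DC against GM-MPP was 2.27 ± 0.43 (adjusted p = 0.0416), and its number difference of 0.83 ± 0.23 (adjusted p = 0.0955) was not called. Trim25, a ubiquitin ligase that acts on RIG-I, was at 10.85 and 9.92 in GM-TNFa-DC, 10.82 and 9.88 in GM-DC, and 9.28 and 9.29 in GM-MPP (arrays 2 and 1), and its number difference was 0.94 ± 0.12 (adjusted p = 0.0126). The number-1 dendritic cell arrays already lay above both GM-MPP arrays for each of the 3 genes.

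The effectors that act on nucleotides, RNA and membranes split in their relation to GM-MPP. Rsad2 (viperin), which makes a nucleotide that ends viral RNA chains, was at 9.46 and 6.70 in GM-TNFa-DC, 9.41 and 5.53 in GM-DC, and 6.92 and 4.83 in GM-MPP (arrays 2 and 1). Its number difference was 3.32 ± 0.29 (adjusted p = 0.00516), and the GM-MPP array numbered 2 lay above both number-1 dendritic cell arrays. Cmpk2, a mitochondrial nucleotide kinase, was at 6.13 and 4.45 in GM-TNFa-DC, 6.34 and 4.68 in GM-DC, and 7.12 and 6.60 in GM-MPP (arrays 2 and 1). It was the only member whose dendritic cell arrays all lay below both GM-MPP arrays, with changes of -1.57 ± 0.74 (adjusted p = 0.256) and -1.35 ± 0.74 (adjusted p = 0.36) in GM-TNFa-DC and GM-DC that did not pass the threshold, while its number difference was 1.67 ± 0.14 (adjusted p = 0.00515). Isg20, an RNA exonuclease, was at 7.56 and 5.70 in GM-TNFa-DC, 7.48 and 5.45 in GM-DC, and 7.17 and 7.05 in GM-MPP (arrays 2 and 1), with number-1 dendritic cell arrays below and number-2 arrays above the GM-MPP arrays and a number difference of 1.95 ± 0.15 (adjusted p = 0.00393). Bst2 (tetherin), which holds budding virus at the cell surface, was at 9.80 and 8.43 in GM-TNFa-DC, 9.57 and 8.0 in GM-DC, and 7.33 and 7.43 in GM-MPP (arrays 2 and 1), and its number difference was 1.47 ± 0.14 (adjusted p = 0.00588). Samhd1, which degrades the building blocks of viral DNA, was at 9.88 and 10.39 in GM-TNFa-DC, 9.90 and 9.85 in GM-DC, and 9.51 and 8.85 in GM-MPP (arrays 2 and 1) and was called in no comparison.

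Of the remaining 9 genes, Rtp4, Xaf1, Ifi27l2a and Sp100 were called higher on number 2. Rtp4, a receptor transporter protein, was at 9.82 and 6.28 in GM-TNFa-DC, 9.66 and 5.80 in GM-DC, and 6.21 and 4.59 in GM-MPP (arrays 2 and 1), and its number difference of 3.70 ± 0.15 (adjusted p = 0.00187) was the largest of all 33 members. Xaf1, a factor that favours apoptosis, was at 9.16 and 7.12 in GM-TNFa-DC, 8.76 and 6.80 in GM-DC, and 6.28 and 5.37 in GM-MPP (arrays 2 and 1), with a number difference of 2.00 ± 0.14 (adjusted p = 0.00347). Ifi27l2a was at 9.61 and 8.29 in GM-TNFa-DC, 9.58 and 8.12 in GM-DC, and 6.10 and 4.51 in GM-MPP (arrays 2 and 1). Its number difference was 1.39 ± 0.13 (adjusted p = 0.00622), it was 1.32 within GM-TNFa-DC, 1.46 within GM-DC and 1.59 within GM-MPP, and the change of 3.55 ± 0.77 (adjusted p = 0.0687) in GM-DC against GM-MPP did not pass the threshold although the groups did not overlap. Sp100, a component of nuclear bodies, was at 7.52 and 6.64 in GM-TNFa-DC, 7.63 and 6.44 in GM-DC, and 7.42 and 7.07 in GM-MPP (arrays 2 and 1), with a number difference of 1.04 ± 0.16 (adjusted p = 0.0202). The GM-MPP arrays lay between the number-1 and the number-2 dendritic cell arrays.

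Parp14 and Parp9, which belong to the ADP-ribosyltransferase family, and the torsin Tor3a showed the other pattern. Parp14 was at 8.37 and 8.48 in GM-TNFa-DC, 8.14 and 8.17 in GM-DC, and 6.52 and 6.32 in GM-MPP (arrays 2 and 1). The 4 dendritic cell values lay between 8.14 and 8.48, above both GM-MPP values, with changes of 2.00 ± 0.20 (adjusted p = 0.00916) in GM-TNFa-DC and 1.73 ± 0.20 (adjusted p = 0.0157) in GM-DC. Parp9 was at 8.69 and 9.03 in GM-TNFa-DC, 8.71 and 8.90 in GM-DC, and 7.74 and 7.30 in GM-MPP (arrays 2 and 1), with 1.34 ± 0.26 (adjusted p = 0.0417) in GM-TNFa-DC and 1.28 ± 0.26 (adjusted p = 0.057) in GM-DC against GM-MPP. Tor3a was at 7.63 and 7.86 in GM-TNFa-DC, 7.49 and 7.64 in GM-DC, and 6.75 and 6.43 in GM-MPP (arrays 2 and 1), with 1.15 ± 0.22 (adjusted p = 0.0417) in GM-TNFa-DC and 0.98 ± 0.22 (adjusted p = 0.0728) in GM-DC. Ifi35, at 10.02 and 10.35 in GM-TNFa-DC, 9.95 and 10.44 in GM-DC, and 9.99 and 9.95 in GM-MPP (arrays 2 and 1), was called in no comparison. Ifi47, an immunity-related GTPase, ranged from 8.30 to 9.04 and was called in none. The plot of the number difference against the change from GM-MPP sets the 2 patterns side by side.

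**Figure D4:**
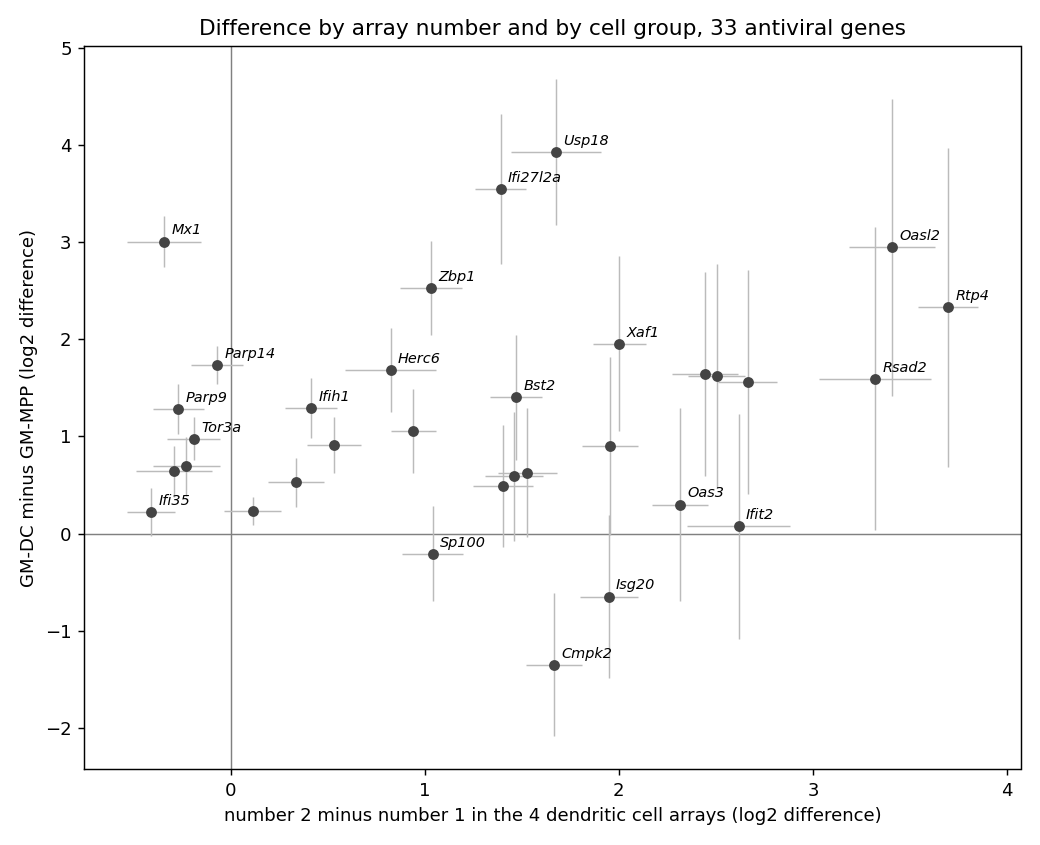
Log2 difference of GM-DC minus GM-MPP (vertical axis, 6 arrays) against number 2 minus number 1 in the 4 dendritic cell arrays (horizontal axis), 1 point per antiviral gene, with bars of 1 moderated standard error in each direction. Mx1, Parp14, Parp9 and Tor3a lie between -0.34 and -0.07 on the horizontal axis, and Rtp4, Oasl2 and Rsad2 lie beyond 3.

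The 22 measured genes with a promoter were also described by whether they held the ISRE core. The 11 genes with the core, which include Ifit3, Oas1a, Rsad2, Ifit1, Bst2 and Ifih1 shown above, had a median number difference of 1.47, and 8 of them were called. The 11 without it in this window had a median of 1.53, and 7 were called. In GM-DC against GM-MPP the medians were 1.30 with the core and 0.53 without it. These are descriptions of letters in a fixed window and say nothing of binding.

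Other genes of the interferon pathway were examined from a list of 54, of which 39 were measured. On number 2 against number 1 of the dendritic cell arrays, 4 were called higher and 5 lower, against 6.41% and 5.41% of all genes. Irf7, the transcription factor that amplifies type I interferon production and is itself induced by interferon, was at 9.22 and 5.34 in GM-TNFa-DC, 8.58 and 4.83 in GM-DC, and 5.20 and 4.56 in GM-MPP (arrays 2 and 1). Its number difference was 3.81 ± 0.14 (adjusted p = 0.00187), and in GM-MPP the arrays differed by 0.64. Ikbke, a kinase that activates such factors, was at 9.94 and 7.09 in GM-TNFa-DC, 9.53 and 5.84 in GM-DC, and 8.50 and 8.04 in GM-MPP (arrays 2 and 1), with a number difference of 3.27 ± 0.23 (adjusted p = 0.0036). The receptor chain Ifnar2 was at 10.60 and 9.45 in GM-TNFa-DC, 10.28 and 9.08 in GM-DC, and 9.54 and 9.36 in GM-MPP (arrays 2 and 1), with a number difference of 1.17 ± 0.12 (adjusted p = 0.00787). Tlr7, a sensor of single-stranded RNA, was higher on number 2 by 1.47 ± 0.25 (adjusted p = 0.0261). The 5 called lower on number 2 were the kinases Jak2 (-1.08 ± 0.16) and Tyk2 (-1.03 ± 0.13), the transcription factors Irf5 (-0.76 ± 0.16) and Irf1 (-0.77 ± 0.13), and the adaptor Myd88 (-0.84 ± 0.14).

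None of the 10 measured interferon genes was called in any comparison by limma; on number they had 0 at an unadjusted p under 0.05, and in each of the other 3 comparisons 1. Ifnb1, which encodes interferon beta, was at 4.08 and 4.12 in GM-TNFa-DC, 3.97 and 3.85 in GM-DC, and 3.64 and 3.52 in GM-MPP (arrays 2 and 1), below the median of all values on every array. Ifnar1, the other type I receptor chain, was at 8.60 and 8.61 in GM-TNFa-DC, 8.42 and 7.74 in GM-DC, and 7.95 and 7.50 in GM-MPP (arrays 2 and 1) and was not called. Stat2, which carries the type I signal to the nucleus, was at 7.52 and 7.88 in GM-TNFa-DC, 7.34 and 7.78 in GM-DC, and 6.18 and 5.97 in GM-MPP (arrays 2 and 1). As for Mx1 and Parp14, the groups did not overlap, with 1.63 ± 0.25 (adjusted p = 0.0264) in GM-TNFa-DC and 1.48 ± 0.25 (adjusted p = 0.0393) in GM-DC against GM-MPP and a number difference of -0.40 ± 0.14 that was not called. Irf9, the DNA-binding partner of Stat2, was at 8.36 and 8.28 in GM-TNFa-DC, 8.05 and 7.80 in GM-DC, and 7.40 and 6.03 in GM-MPP (arrays 2 and 1) and was not called.

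In GM-DC against GM-MPP, 2 of the 39 pathway genes were called higher, Stat2 and Tlr3, and 0 lower, against 1.87% and 2.63% of all genes. Tlr3, a sensor of double-stranded RNA in endosomes, was at 6.0 and 4.79 in GM-TNFa-DC, 6.27 and 6.13 in GM-DC, and 3.60 and 3.81 in GM-MPP (arrays 2 and 1), with a change of 2.50 ± 0.39 (adjusted p = 0.032) in GM-DC against GM-MPP, a lower limit since its GM-MPP levels lie below the median. In GM-TNFa-DC against GM-MPP, 5 were called higher and 1 lower, against 2.77% and 4.26% of all genes. Besides Stat2 these were Irf5 (2.80 ± 0.55), the interferon gamma receptor chain Ifngr2 (1.43 ± 0.26) and the feedback inhibitors Socs1 (2.04 ± 0.34) and Socs3 (1.98 ± 0.39); the phosphatase Ptpn6 (-1.02 ± 0.21) was the gene called lower. Socs1 was at 7.45 and 7.67 in GM-TNFa-DC, 6.88 and 6.79 in GM-DC, and 5.04 and 6.0 in GM-MPP (arrays 2 and 1), and Socs3 at 11.14 and 10.77 in GM-TNFa-DC, 10.80 and 10.81 in GM-DC, and 9.53 and 8.41 in GM-MPP (arrays 2 and 1). In GM-TNFa-DC against GM-DC limma called 0 of the 39, and 1 was higher at an unadjusted p under 0.05.

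**Figure D5:**
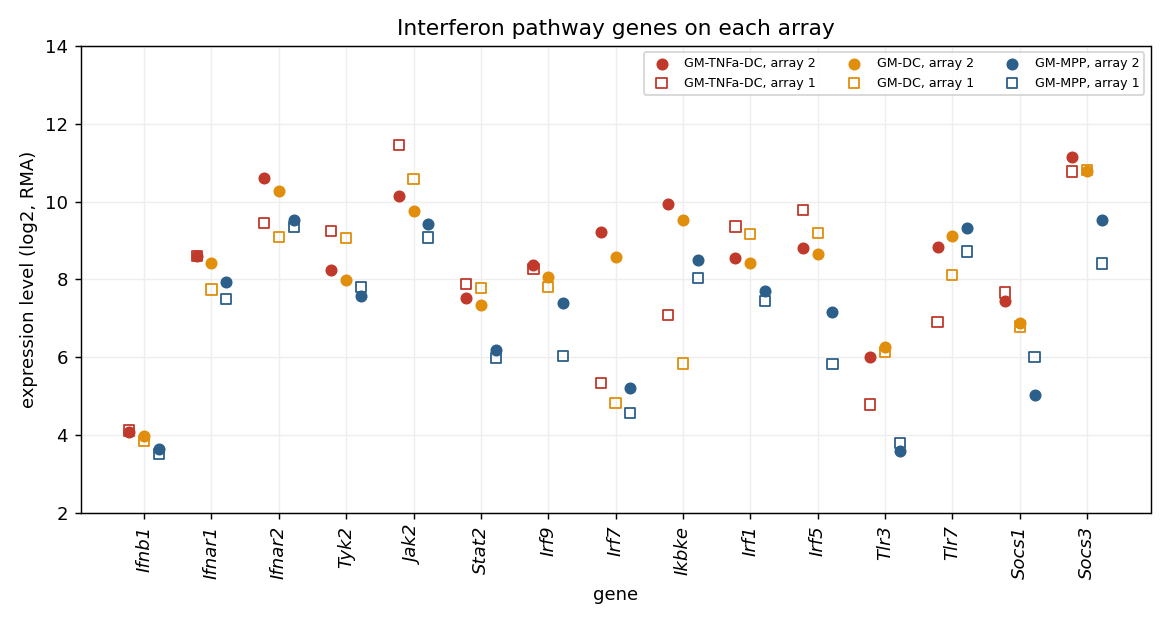
Level (log2, RMA) of 15 interferon pathway genes outside the antiviral list on each array, filled circles for arrays numbered 2 and open squares for arrays numbered 1. Irf7 lies at 9.22 and 8.58 on the number-2 dendritic cell arrays and at 5.34 and 4.83 on the number-1 arrays, whereas Ifnb1 stays between 3.52 and 4.12.

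Markers of cell types and the poly-A control probe sets moved with the array number as well. Of 12 dendritic cell markers, 11 were called lower on number 2 in the dendritic cell arrays, and their mean level was 9.38 and 9.11 on GM-TNFa-DC 2 and GM-DC 2, against 11.2 and 10.7 on GM-TNFa-DC 1 and GM-DC 1. Of 8 monocyte and macrophage markers, 4 were called higher and 1 lower on number 2, with mean levels of 9.04 and 9.26 against 7.77 and 7.85, and 9.02 against 7.88 in GM-MPP. Of 9 markers of plasmacytoid dendritic cells, which are known for making much interferon, 1 was called higher and 2 lower, and their mean level was 5.55 to 5.88 on all arrays. Siglech, a defining receptor of that cell type, was at 5.33 to 5.55 throughout, near the median of all values. Spiked-in poly-A transcripts, put into the RNA ahead of labelling, were lower on number 2 in 24 of 24 probe sets in every group, with median log2 differences of -1.37 in GM-TNFa-DC, -1.09 in GM-DC and -1.28 in GM-MPP. The 9 hybridisation controls, added after labelling, had median differences of 0.20 in GM-TNFa-DC, -0.01 in GM-DC and -0.01 in GM-MPP. Between dendritic cells and progenitors, 7 of 8 progenitor markers and 5 of 10 neutrophil granule markers were called lower in GM-DC than in GM-MPP, with mean levels of 4.63 to 5.34 and 7.43 to 8.94 on the dendritic cell arrays, against 8.68 to 9.10 and 12.4 to 12.9 on the GM-MPP arrays. The part of these markers and controls in the differences of the antiviral genes was not tested.

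Other probe sets of the same genes were measured for comparison, 62 probe sets over the 33 genes. In number 2 against number 1, all 13 other probe sets of the 21 called members, from 9 genes, were higher on number 2, 7 of them at least 2-fold, and over all members 26 of 29 other sets had the direction of the brightest. The second set of Rtp4 differed by 0.41, that of Xaf1 by 0.29 and that of Cmpk2 by 0.28, all in the direction of the brighter set and smaller; the mean levels of those of Rtp4 (3.36) and Xaf1 (4.48) lie below the median of all values. Those of Rsad2 differed by 3.23 and 2.92, those of Trim25 by 1.09 and 1.40, and that of Zbp1 by 1.21. For Adar the brightest set differed by -0.29 and another set by 0.45, so the direction of its number difference depends on the probe set. Parp14 (-0.07 and 0.02) and Tor3a (-0.19 and 0.01) also had a set of the other sign. Among members called against GM-MPP, Parp14, Zbp1, Herc6 and Tor3a had other sets. In GM-DC against GM-MPP these changed by 0.80 for Parp14, 1.53 for Zbp1, 0.99 to 1.39 for Herc6, and 1.19 and 1.27 for Tor3a. The brightest sets changed by 1.73, 2.53, 1.68 and 0.98, and only Parp14 was called there. All of these genes were called in GM-TNFa-DC against GM-MPP. In that comparison the other sets changed by 0.88 for Parp14, 1.76 for Zbp1, 1.34 to 1.87 for Herc6, and 1.42 and 1.20 for Tor3a. The brightest sets there changed by 2.00, 2.51, 2.27 and 1.15.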

How the data were processed

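Per the submitters' processing notes, the authors made the deposited values with RMA, a method of background correction, quantile normalization and probe summary. Their range, 1.89 to 14.4, is the basis for reading the deposited values as log2. Neither the RMA version nor the set of arrays normalized jointly is given in the sources used here. Such normalization hides any difference in total signal (array medians 4.67 to 4.77). Of 45101 probe sets, 64 were controls, 34945 had 1 gene symbol, 932 several and 9160 none listed. For 34741 of the single-symbol probe sets the Entrez identifier was in a RefSeq table of GRCm38.p6, and the symbol given there was used. The brightest single-symbol probe set stood for each of 18193 genes. Low values were not filtered and detection was not called, so changes of dim genes are compressed.

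Tests used limma 3.58.1 (lmFit, eBayes with an intensity trend; R 4.3.3), with Benjamini-Hochberg adjustment over all genes and a threshold of 0.05. "Called" means past that threshold, and ± gives the moderated standard error of a log2 difference (n = 2 arrays per group). The 3 group comparisons used all 6 arrays without a term for the number; the number was tested on 4 arrays with a term for group. The members, lists, tests and promoter motifs were chosen with earlier results of these data known. Given with every array's value were members called in any comparison, the 5 with the largest absolute change in each and the brightest of each role group; of other pathway genes, named with levels or changes were 7 fixed names (1 is not reported here), those called and the 3 with the largest change. The fits were tested on simulated data. Tried as alternatives were median centring, quantile normalization applied again, no dim genes, probe sets averaged per gene, all probe sets tested, other priors, fewer or more arrays, the replicate number as a block and each array left out. Python 3.11.15 with pandas 2.3.3 prepared tables and matplotlib 3.10.9 drew the plots.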

Additional observations from a re-analysis of the deposited data

How the results depend on the processing

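In GM-DC against GM-MPP, 819 genes were called, and 1251 with all probe sets and 1476 with the replicate block; members called higher were 2, but 5 without dim genes, 4 with a prior without trend and 8 with the replicate block (Mx1, Parp14, Oasl2, Ifih1, Zbp1, Usp18, Xaf1 and Ifi27l2a). Leaving out each array gave 50 to 717 genes, 0 to 3 members and a median of 0.47 to 1.55. In GM-TNFa-DC against GM-MPP, 1279 genes were called, against 2001 with all probe sets, 749 with only the 4 arrays compared and 2060 with the replicate block, and the 7 members became 4 with only the 4 arrays and 13 with the block. The median of 1.15 was 1.27 after a second quantile normalization, 1.08 after median centring and 1.21 with averaged probe sets, and each array left out gave 91 to 760 genes, 0 to 4 members and medians of 0.83 to 1.56. In GM-TNFa-DC against GM-DC, limma called 0 genes under every alternative. This included the replicate block on the 4 arrays compared, which was chosen after seeing the data. With that block 4 members were higher at an unadjusted p under 0.05, against 1474 of all 18193 genes in either direction. Each array left out gave medians of -0.53 to 0.76. The same alternatives moved Ifit1 between -0.53 and 2.25, Oasl2 between -1.07 and 2.72, Rsad2 between -1.33 and 2.56, Herc6 between -0.038 and 1.21, Usp18 between -0.48 and 1.61, Ikbke between -1.01 and 2.67, and Tlr7 between -1.70 and 0.22. The sign turned for the first 6 without GM-DC 1, for 5 of these (not Herc6) without GM-TNFa-DC 2, and for Tlr7 only without GM-TNFa-DC 1, where the arrays left are unbalanced in number. For number 2 against number 1, 2150 genes were called, 3242 with all probe sets and 0 with 6 arrays (2293 at an unadjusted p under 0.05). The 21 members became 0 with 6 arrays, and the median of 1.40 was 1.44 after a second quantile normalization, 1.38 after median centring, 1.14 with averaged probe sets and 1.07 with 6 arrays. Leaving out an array there leaves no residual degrees of freedom, so medians of 1.31 to 1.32 have no test. The causes of these shifts were not otherwise tested. Over all genes, same-numbered arrays deviated together at a correlation of 0.806 between GM-TNFa-DC and GM-DC. The correlation was 0.105 between GM-DC and GM-MPP and 0.0719 between GM-TNFa-DC and GM-MPP, so the main group fits had no number term. That reason does not cover GM-TNFa-DC against GM-DC, whose same-numbered arrays deviated together at 0.806. Poly-A controls, however, were lower on number 2 in 24 of 24 probe sets in every group, GM-MPP included. Fits without a number term keep any difference shared by number in their spread. With the block, members called against GM-MPP were 8 in GM-DC and 13 in GM-TNFa-DC, instead of 2 and 7. With 2 arrays a group, the calls from GM-MPP rest on the GM-MPP pair, and levels near 4.73 cannot be told from background.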
